A study of Mus musculus with 70 samples.

Results

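The immediate early AP-1 genes examined here were Fos, Fosb, Jun, Junb, Jund, Egr1, Ier2, Atf3 and Dusp1, 9 of the 52636 genes in a table of RNA-seq read counts from sorted blood leukocytes of mice. They were chosen by name and matched by Ensembl identifier to GENCODE M21. The study asked how chronic social defeat stress (CSDS) changes gene expression in 4 types of circulating leukocyte, the classical Ly6C-high and nonclassical Ly6C-low monocytes and the B and T lymphocytes. Young adult male C57BL/6J mice were subordinated by CD-1 aggressors for 10 days and then classed by a social interaction test as stress-susceptible (SUS, socially avoidant) or resilient (RES), beside unstressed controls (CON). The labels and methods name no transgene or drug for these samples. After red cell lysis, the cells were sorted from trunk blood with antibodies against CD11b, Ly6C, Ly6G, B220 and CD90.2, straight into Trizol. Of 70 libraries, 68 were used, with 6 per cell type and group, except for 4 of CON Ly6C-low monocytes, 5 of RES B cells and 5 of RES T cells. The source field of the labels reads brain, whereas the design text and the methods describe blood. The labels name no mouse, so a p-value below measures the spread between libraries, which may be partly technical. Fewer cells of a type in a sort and less RNA per cell cannot be told apart in these bulk libraries.

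Immediate early genes are switched on within minutes of a stimulus without new protein synthesis, through MAP kinases, the serum response factor with its Elk partners, and CREB. The products of the Fos and Jun genes pair into AP-1, a transcription factor that binds the TRE (TGACTCA) and, with ATF partners, the CRE (TGACGTCA). In myeloid cells and lymphocytes AP-1 is known for driving genes of inflammation and activation. Atf3 encodes a stress-induced ATF protein that can repress inflammatory genes, Egr1 a zinc finger factor of the same first wave, Ier2 a nuclear protein of less settled function, and Dusp1 a phosphatase that switches MAP kinases off again. These transcripts are also known to respond to the handling and sorting of cells, and the labels give no handling time.

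Promoters of 7 of the 9 genes were read from RefSeq's table for GRCm38.p6, without Ier2, which had no match, and Egr1, whose window was not used. The 250 bases before each start were searched on both strands for the CRE (TGACGTCA), its core (TGACGT, which lies inside the CRE), the TRE (TGACTCA or TGAGTCA), an EGR site (GCGTGGGCG), a TATA box (TATAAA) and the CArG box of the serum response factor. The 3 windows with a match are shown because they hold the CRE letters that CREB and ATF proteins read, with the matched letters in capitals. The Fos stretch is chr12:85473800-85473879 on the plus strand, 90 to 11 bases before the start. The Dusp1 stretch is chr17:26508593-26508672 on the minus strand, 200 to 121 bases before, and the Atf3 stretch is chr1:191183334-191183393 on the minus strand, 60 to 1 bases before. The RefSeq starts of Dusp1 and Atf3 both lie inside the GENCODE gene.
Fos: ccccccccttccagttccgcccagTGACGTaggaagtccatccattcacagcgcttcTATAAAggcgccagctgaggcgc
Dusp1: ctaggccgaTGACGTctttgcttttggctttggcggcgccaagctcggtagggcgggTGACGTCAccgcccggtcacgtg
Atf3: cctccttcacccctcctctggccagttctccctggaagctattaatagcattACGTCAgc

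The capitals mark a CRE core and a TATA box in Fos, a CRE core and a full CRE in Dusp1, and a CRE core read on the other strand (ACGTCA) in Atf3. Of 32851 promoters in the table, 1.546% held a CRE, 6.469% a CRE core, 4.463% a TRE, 1.467% a CArG box, 0.5358% an EGR site and 12.37% the TATA letters. Windows of Fosb, Jun, Junb and Jund held none of these letters, and that of Jund lies outside the GENCODE gene. A match is a description of letters in this window.

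Each library had between 19769835 and 67038231 counts on genes (median 37105583.5). Mitochondrial genes took 3.66 to 18.4% of them. Gm23935 and Gm26917, annotated as a microRNA gene and a long noncoding RNA, together took 0.395 to 41.0%. Summed markers of the sorted type followed the labels in the 68 libraries, with B cell markers between 4145 and 5335 CPM in B cells and at most 34.2 CPM elsewhere, and T cell markers between 1276 and 1800 CPM in T cells and at most 4.76 CPM elsewhere. Natural killer (NK) cell markers had a median of 571 CPM in CON Ly6C-low monocytes. The medians were 106 CPM in CON T cells, 10.5 CPM in CON Ly6C-high monocytes and 5.51 CPM in CON B cells. Their part in the differences between the monocyte types was not tested. Libraries 52 and 70 went against their labels and were left out. The library labelled RES B cells 52 had 9.27 CPM of B cell and 1374 CPM of T cell markers, and the library labelled RES T cells 70 had 4663 and 0.681 CPM. Levels are read counts scaled to library size after TMM normalization (CPM, with TMM the trimmed mean of M values), on a linear scale unless log2 is named.

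Fos (ENSMUSG00000021250) lies on the plus strand of chromosome 12 of GRCm38 from 85473890 to 85477273, and Fosb (ENSMUSG00000003545) on the minus strand of chromosome 7 from 19302696 to 19310051. Jun (ENSMUSG00000052684) is on the minus strand of chromosome 4 from 95049034 to 95052222. Junb (ENSMUSG00000052837), Ier2 (ENSMUSG00000053560) and Jund (ENSMUSG00000071076) share chromosome 8, Junb from 84974484 to 84978718 and Ier2 from 84661331 to 84662852 on the minus strand, and Jund from 70698949 to 70700616 on the plus strand. Egr1 (ENSMUSG00000038418) is on the plus strand of chromosome 18 from 34859823 to 34864984. Atf3 (ENSMUSG00000026628) is on the minus strand of chromosome 1 from 191170296 to 191218039, and Dusp1 (ENSMUSG00000024190) on the minus strand of chromosome 17 from 26505590 to 26562128. All are protein-coding. Exons of 4 of them overlap a gene on the other strand, Jun with Junos, Junb with Prdx2, Jund with Gm11175 and Dusp1 with Ergic1, and the strand option of the authors' counting was not given in the sources used here. Prdx2 had up to 6769 counts in a library and Ergic1 up to 1214, so counts of Junb and Dusp1 are uncertain, whereas Gm11175 had 0 counts in every library.

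In unstressed CON mice, the 4 cell types carried these genes at very different levels. Fos fell in steps from Ly6C-high monocytes to T cells, Atf3 was a monocyte transcript that was near 0 in lymphocytes, Dusp1 was high in both monocyte types, and Jund stood out in B cells. Together the 9 genes took 968 to 1253 CPM in Ly6C-high monocytes, 448 to 955 CPM in Ly6C-low monocytes, 325 to 493 CPM in B cells and 158 to 191 CPM in T cells.

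Fos, the founding partner of AP-1, was at 342 to 533 CPM in the 6 CON libraries of Ly6C-high monocytes, with a median of 355. In the 4 CON libraries of Ly6C-low monocytes it was at 85.1, 55.4, 133 and 116 CPM. B cells had 24.0 to 35.8 CPM (median 27.6) and T cells 2.14 to 8.91 CPM (median 4.63). The 4 cell types did not overlap. Its log2 fold change was 1.98 ± 0.29 (standard error, SE) between Ly6C-high and Ly6C-low monocytes, with an adjusted p of 3.32e-05 from edgeR's quasi-likelihood test, and 6.24 ± 0.31 between Ly6C-high monocytes and T cells (adjusted p = 2.62e-13). Fosb, its close relative, was at 37.2 to 99.5 CPM (median 54.0) in Ly6C-high monocytes and at 27.6, 11.8, 45.4 and 27.0 CPM in Ly6C-low monocytes. It was at 11.5 to 20.5 CPM (median 15.6) in B cells and 2.40 to 3.38 CPM (median 3.05) in T cells. Every T cell library lay below every other library, while neighbouring types above it overlapped.

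Among the Jun genes, which pair with Fos proteins or with each other, Jun was lowest in T cells, with 9.99 to 21.3 CPM (median 13.8). It was at 54.3 to 74.0 CPM (median 58.5) in Ly6C-high monocytes, at 69.4, 49.6, 117 and 126 CPM in Ly6C-low monocytes and at 33.7 to 70.4 CPM (median 51.3) in B cells. These 3 types overlapped, and none of their pairwise differences was called, although Ly6C-low monocytes exceeded B cells by 0.85 ± 0.25 on the log2 scale (adjusted p = 0.00766, edgeR), short of the fold. Junb was at 68.7 to 280.0 CPM (median 209) in Ly6C-high monocytes and 118 to 196 CPM (median 152) in B cells, against 50.9 to 79.4 CPM (median 74.7) in T cells. In Ly6C-low monocytes it was at 159, 24.6, 172 and 134 CPM, and the monocyte types and B cells overlapped. T cells overlapped both monocyte types but lay below every B cell library. Jund went the other way, with 28.9 to 67.9 CPM (median 55.9) in B cells and 3.29 to 14.5 CPM (median 4.95) in Ly6C-high monocytes. Ly6C-low monocytes had 5.62, 2.96, 13.6 and 9.38 CPM, and T cells 4.77 to 21.1 CPM (median 9.74). All 6 B cell libraries lay above every library of the other types.

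Atf3 was at 61.2 to 76.6 CPM (median 69.2) in Ly6C-high monocytes and at 25.1, 24.0, 30.7 and 24.8 CPM in Ly6C-low monocytes. B cell libraries had 0 to 6 counts of it, or 0 to 0.199 CPM, and T cell libraries 0 to 20 counts, or 0 to 0.501 CPM. The monocyte types did not overlap each other or the lymphocytes, whose levels are near the limit of detection. Egr1 was at 21.4 to 29.3 CPM (median 26.4) in Ly6C-high monocytes, above every library of Ly6C-low monocytes (18.1, 9.88, 18.9 and 10.3 CPM), B cells (4.86 to 18.6 CPM, median 8.48) and T cells (2.72 to 7.74 CPM, median 4.84). Ier2 was at 101 to 161 CPM (median 135) in Ly6C-high monocytes, 149.9, 77.0, 169 and 152 CPM in Ly6C-low monocytes, and 78.0 to 107 CPM (median 91.5) in B cells. T cells, at 41.2 to 57.9 CPM (median 51.6), lay below all of these. Dusp1 was at 117 to 240.3 CPM (median 197) in Ly6C-high and at 176, 193, 255 and 304 CPM in Ly6C-low monocytes. B cells had 13.5 to 27.4 CPM (median 18.5) and T cells 8.19 to 24.3 CPM (median 14.5), so both monocyte types lay above both lymphocyte types.

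**Figure D1:**
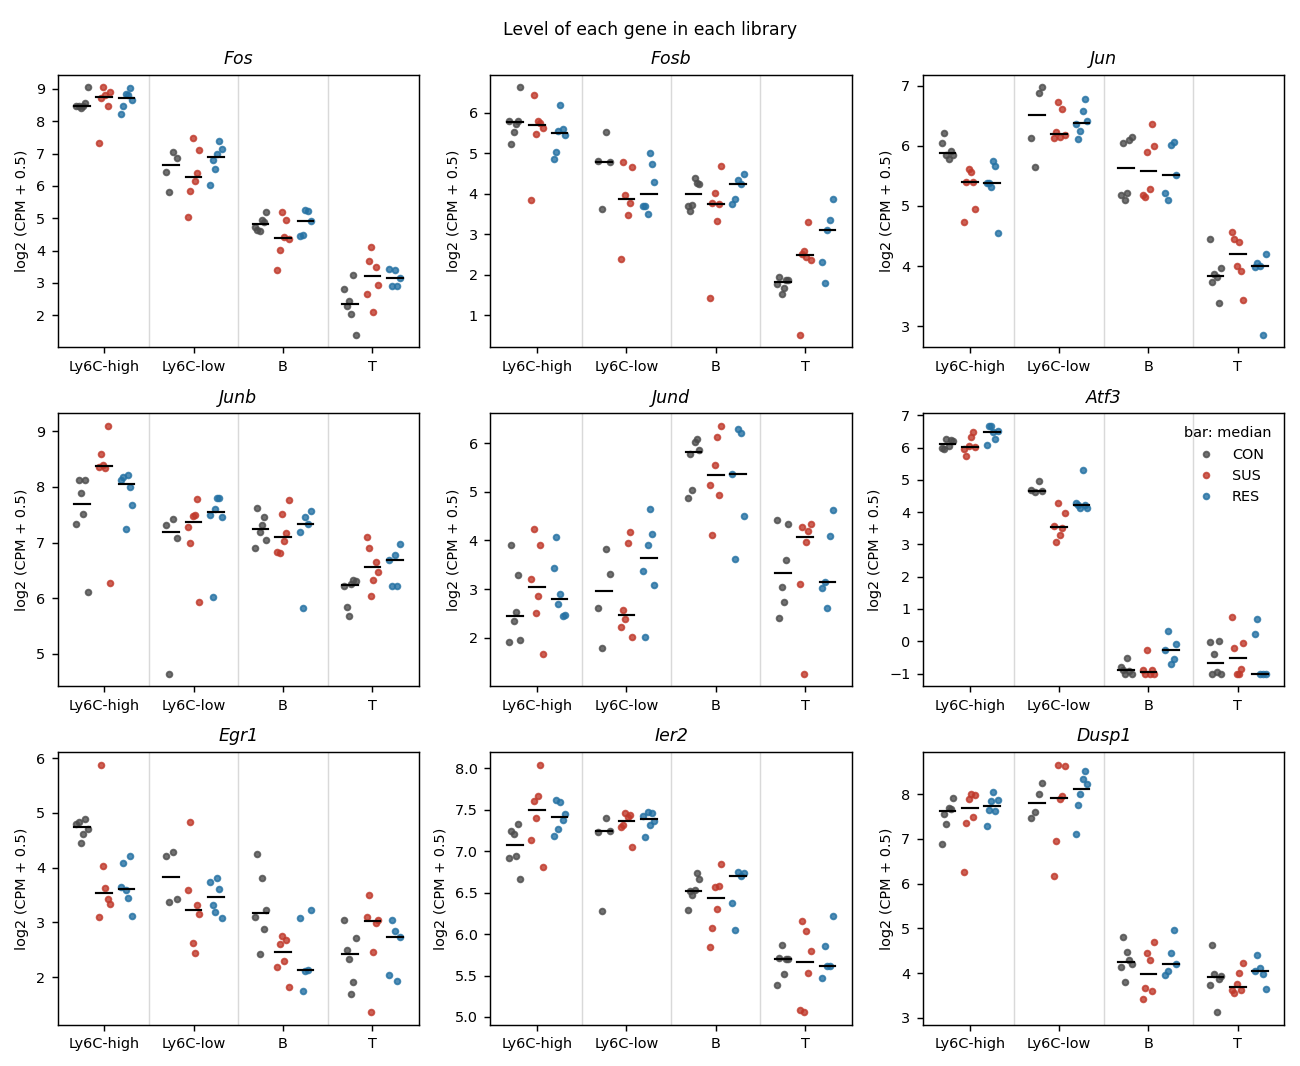
Level of each of the 9 genes as log2 (CPM + 0.5), with 1 point per library for CON, SUS and RES mice in the 4 cell types and a bar at each group's median. Fos steps down across the 4 types, Atf3 is near 0 CPM in B and T cells, and all 6 CON B cell libraries carry more Jund than CON libraries of the other types.

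Compared per kilobase of exon, so that genes of different length can be set side by side, Fos led in CON Ly6C-high monocytes with 164 ± 31.1 CPM per kb (SD, n = 6). Ier2 and Junb followed with 88.0 ± 14.7 and 87.5 ± 35.4 CPM per kb, which differ by less than their spread. Jund was last there with 4.03 ± 2.64 CPM per kb. In Ly6C-low monocytes the order began with Ier2 (89.97 ± 26.9 CPM per kb, n = 4), Dusp1 (70.0 ± 17.7) and Junb (53.2 ± 29.1), with Fos only in the fourth place at 41.4 ± 14.6. In B cells Junb (67.0 ± 12.5 CPM per kb, n = 6) and Ier2 (61.0 ± 6.59) came first and Jund came next with 30.5 ± 9.89. T cells had the same first 3 genes, with Ier2 at 32.8 ± 3.83, Junb at 30.0 ± 5.28 and Jund at 7.10 ± 4.19 CPM per kb. The leading pair in B cells and in T cells did not differ beyond its spread.

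**Figure D2:**
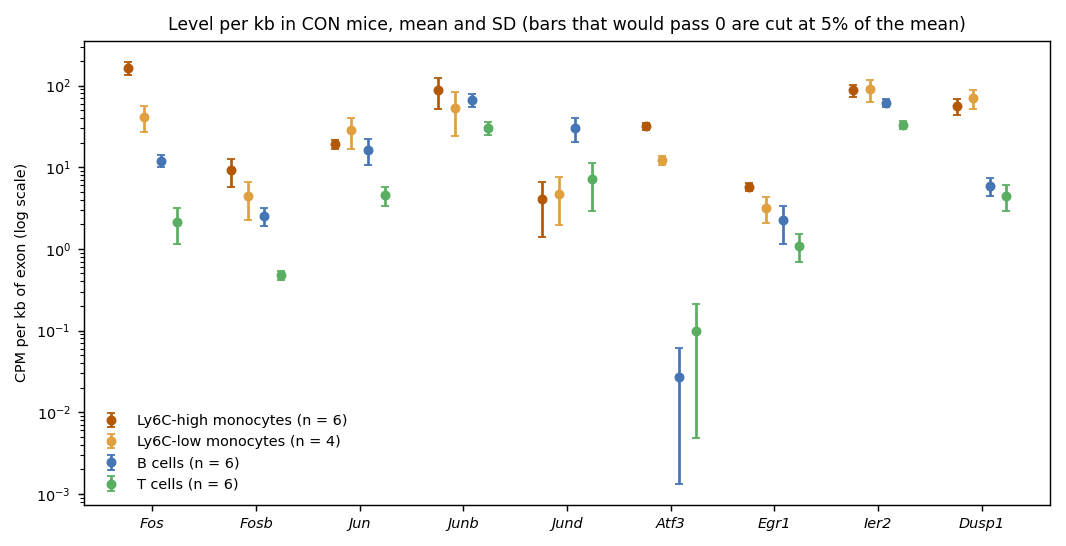
Mean level per kilobase of exon in CON mice with the SD over libraries, on a log axis in CPM per kb, for 9 genes and 4 cell types. Fos spans 164 CPM per kb in Ly6C-high monocytes to 2.16 in T cells, whereas Ier2 stays between 89.97 and 32.8.

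The comparison of cell types was tested in CON mice over 21032 genes with edgeR's quasi-likelihood test, and a gene was called when its Benjamini-Hochberg adjusted p was below 0.05 and its log2 fold change exceeded 1 in size. Between Ly6C-high and Ly6C-low monocytes, 3 of the 9 genes were called, Fos, Fosb and Atf3, all higher in Ly6C-high monocytes, beside 11.2 percent of all genes. The values of Fosb and Atf3 were 1.04 ± 0.28 and 1.39 ± 0.48 (log2 ± SE, adjusted p = 0.00769 and 0.0471). Without the Ly6C-high library 16 or the Ly6C-low library 24, 1 gene was called. Against B cells, Ly6C-high monocytes had 5 genes higher and 1 lower, where 33.1 percent of all genes were called. Atf3 differed by 10.25 ± 0.69, Fos by 3.81 ± 0.27, Dusp1 by 3.30 ± 0.24, Fosb by 1.91 ± 0.25 and Egr1 by 1.40 ± 0.29, and Jund by -2.88 ± 0.46. Against T cells, 8 of 9 genes were higher in Ly6C-high monocytes, all but Jund (-0.81 ± 0.44, and -1.18 ± 0.43 with a call when CON library 4 was left out), where 32.8 percent of all genes were called. Ly6C-low monocytes had Atf3 (8.86 ± 0.69), Dusp1 (3.63 ± 0.25) and Fos (1.83 ± 0.27) higher and Jund (-2.64 ± 0.54) lower than B cells, against 30.3 percent of all genes. Against T cells 7 genes were higher in them, from Atf3 (6.95 ± 0.59) and Fos (4.26 ± 0.29) to Ier2 (1.46 ± 0.16), against 28.5 percent. Between B and T cells, 6 genes were called higher in B cells, Fos (2.44 ± 0.26), Fosb (2.38 ± 0.26), Jund (2.07 ± 0.45), Jun (1.80 ± 0.23), Junb (1.12 ± 0.35) and Egr1 (1.01 ± 0.29), against 20.2 percent. Over all genes the median log2 fold change of the 6 comparisons lay between -0.09 and 0.12, and that of the 9 genes between 0.71 and 2.65.

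Jund levels also moved with a property of the library. Within each cell type and after removal of group means, log2 Jund rose with the log2 share of counts on Gm23935 and Gm26917. Pearson's r was 0.919 in the 18 libraries of Ly6C-high monocytes, 0.958 in 16 of Ly6C-low monocytes, 0.955 in 17 of B cells and 0.899 in 17 of T cells. Spearman's rho was 0.938, 0.906, 0.956 and 0.909 in the same order, and permutation p-values adjusted over all relations computed were 0.00072, 0.00096, 0.00072 and 0.00144 for r and the same for rho. Without the 2 libraries farthest from the median share, r was 0.922, 0.9503, 0.924 and 0.875. Of the relations of the 9 genes with 4 library measures in 4 cell types (this share, the total count, and summed red cell and dendritic cell markers), 5 passed an adjusted p of 0.05 by Pearson's r, these 4 and Junb with the share in Ly6C-high monocytes (r = 0.708, adjusted permutation p = 0.0127, rho = 0.798, adjusted permutation p = 0.00648, r = 0.740 without 2 libraries). By Spearman's rho the same 5 passed and also Junb with the share in Ly6C-low monocytes (rho = 0.797, adjusted permutation p = 0.00518), whose r was 0.659 (adjusted permutation p = 0.198, r = 0.596 without 2 libraries). The Jund transcript has 67.2% G and C, the highest of the 9, followed by Junb with 62.6% and Ier2 with 60.9%, and Fos the lowest with 51.9%.

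The share itself differed between cell types, with medians of 29.6% in CON B cells, 16.0% in CON T cells, 2.67% in CON Ly6C-high and 1.24% in CON Ly6C-low monocytes. With the log2 share as a covariate, chosen after seeing the data, the Jund difference between Ly6C-high monocytes and B cells was -1.17 ± 0.30 (adjusted p = 0.00274, edgeR) and still called. Between Ly6C-low monocytes and B cells it was -0.55 ± 0.36 (adjusted p = 0.283) and lost its call. Against T cells the sign turned, to 0.67 ± 0.27 in Ly6C-high and 1.29 ± 0.32 in Ly6C-low monocytes, and the B over T difference was 1.84 ± 0.21 (adjusted p = 6.81e-08). The part of the share in the Jund differences cannot be told apart from cell type, since both differ together.

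**Figure D3:**
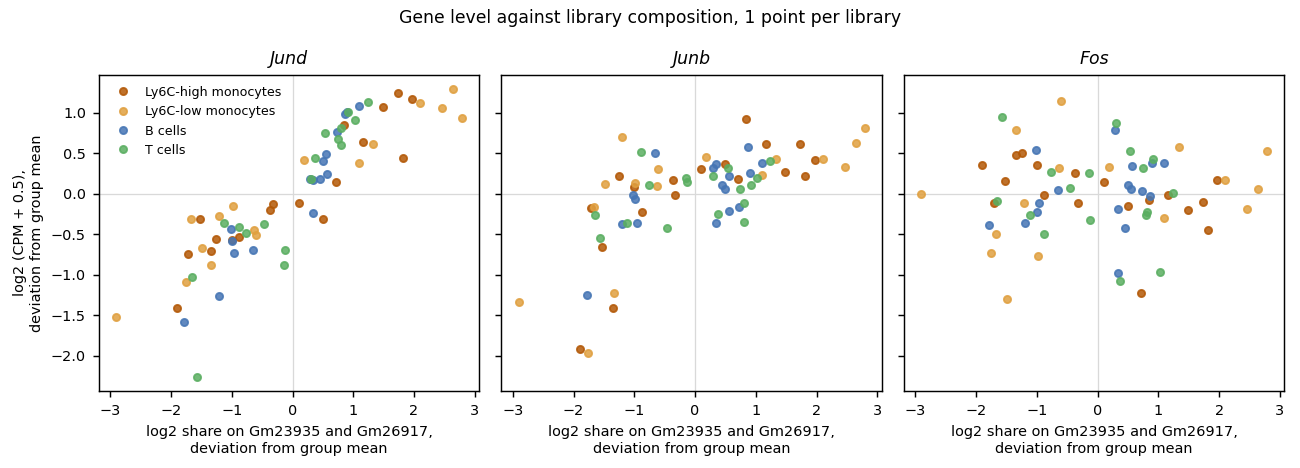
Deviation of log2 (CPM + 0.5) from the group mean for Jund, Junb and Fos, against the deviation of the log2 share of counts on Gm23935 and Gm26917, with 1 point per library coloured by cell type. Jund climbs with the share in every cell type (r from 0.899 to 0.958), Junb does so in Ly6C-high monocytes (r = 0.708), and Fos has r = -0.490 there.

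Social defeat left most of these genes without a detectable change. In Ly6C-high monocytes, where 3.45 percent of 16955 genes were called between SUS and CON mice and 0.997 percent between RES and CON mice, 0 of the 9 genes were called in either comparison by edgeR or by DESeq2. At an unadjusted p under 0.05 edgeR had 3 genes in each comparison, Jun, Ier2 and Junb in SUS mice and Jun, Egr1 and Atf3 in RES mice, while DESeq2 had 2 and 1 and gave no p for Egr1. Over all genes, 26.5 and 21.2 percent had an edgeR p under 0.05 in these comparisons. The median log2 fold change of the 9 genes was 0.0027 in SUS and 0.19 in RES mice, against -0.05 and -0.03 over all genes.

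Jun was the member with the clearest difference. It was at 54.3 to 74.0 CPM (median 58.5) in CON Ly6C-high monocytes, 26.2 to 48.6 CPM (median 41.4) in SUS and 23.0 to 53.3 CPM (median 41.1) in RES mice. Every SUS and every RES library lay below every CON library, a separation that 7.72% of 14777 genes with a mean of at least 1 CPM had in SUS mice and 4.87% in RES mice. The SUS difference was -0.68 ± 0.18 on the log2 scale (adjusted p = 0.0143, edgeR's quasi-likelihood test), past the adjusted p but short of the fold of a call. By the adjusted p alone, 12.6 percent of all genes passed, and 1 of the 9. The RES difference was -0.58 ± 0.18 (adjusted p = 0.0588), which passed with DESeq2 (adjusted p = 0.0124). In each of 12 fits that left out 1 library, the adjusted p of the SUS difference stayed under 0.05, from 0.0141 to 0.0394. Red cell markers were also higher in stressed mice, with medians of 1171 (SUS) and 1334 CPM (RES) against 414 CPM (CON) in Ly6C-high monocytes. Their ranges barely overlapped, at 233 to 891 CPM in CON, 787 to 6316 CPM in SUS and 776 to 3147 CPM in RES mice. A red cell covariate thus nearly tracks stress in these cells, and a call lost under it cannot be assigned to either. With the red cell level as a covariate the Jun values were -0.88 ± 0.25 in SUS and -0.74 ± 0.23 in RES mice, with adjusted p of 0.484 and 1.0. Dendritic cell markers were lower in stressed mice (120 to 154 CPM in CON, 26.6 to 94.6 in SUS and 70.5 to 151 in RES mice). Summed Jchain, Sdc1 and Xbp1, listed as plasma cell markers, had medians of 198 (CON), 348 (SUS) and 267 CPM (RES). That sum was lower in B cells (medians of 74.3, 64.9 and 62.0 CPM), and which cells it came from was not tested. Within groups Jun had r = 0.189 with the red cell sum (adjusted permutation p = 0.843, rho = 0.189, r = 0.176 without 2 libraries) and 0.366 with the dendritic cell sum (adjusted permutation p = 0.615, rho = 0.395, r = 0.734 without 2 libraries). Their part in the Jun difference was not tested further.

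Egr1 in Ly6C-high monocytes was at 21.4 to 29.3 CPM (median 26.4) in CON and 8.17 to 18.2 CPM (median 11.8) in RES mice, and all RES libraries lay below all CON libraries. In SUS mice 5 of 6 libraries were at 8.04 to 15.8 CPM, below every CON library, and library 5 was at 58.5 CPM, above all of them. The log2 fold change was -0.47 ± 0.37 in SUS (adjusted p = 0.453, edgeR) and -1.03 ± 0.37 in RES mice (adjusted p = 0.102). Without library 5 the SUS value was -1.27 ± 0.22 (adjusted p = 0.00112, edgeR), which is a call. In RES mice it was called when SUS libraries were kept out of the fit (-1.06 ± 0.20, adjusted p = 0.00394) and with the share of Gm23935 and Gm26917 as a covariate (-1.27 ± 0.36, adjusted p = 0.0442). With the red cell covariate it was -0.09 ± 0.47 in SUS and -0.62 ± 0.48 in RES mice.

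The other Ly6C-high values overlapped between groups. Fos was at 159 to 529 CPM (median 432) in SUS and 298 to 518 CPM (median 425) in RES mice, with log2 fold changes of 0.0027 ± 0.19 and 0.08 ± 0.19 against CON mice. Junb ranged from 76.6 to 547 CPM (median 333) in SUS mice, a fold change of 0.70 ± 0.33 (adjusted p = 0.180, edgeR) that was 0.35 ± 0.27 with the share covariate. Ier2 was at 112 to 264 CPM (median 181) in SUS and 145 to 196 CPM (median 171) in RES mice, differences of 0.40 ± 0.17 and 0.34 ± 0.17 (adjusted p = 0.124 and 0.243). With the red cell covariate the SUS value of Ier2 was -0.015 ± 0.21. Atf3 was at 53.4 to 88.3 CPM (median 64.5) in SUS and 66.7 to 102 CPM (median 89.6) in RES mice. Its RES difference was 0.33 ± 0.14 (adjusted p = 0.165). Fosb, Jund and Dusp1 had log2 fold changes between -0.35 and 0.47 in these comparisons, each with a range that overlapped CON mice. Between SUS and RES mice 0 of the 9 genes and 0 percent of all genes were called, 1 member had an unadjusted p under 0.05 in edgeR (Atf3, -0.37 ± 0.14), as 3.66 percent of all genes did, and DESeq2 called 0.

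**Figure D4:**
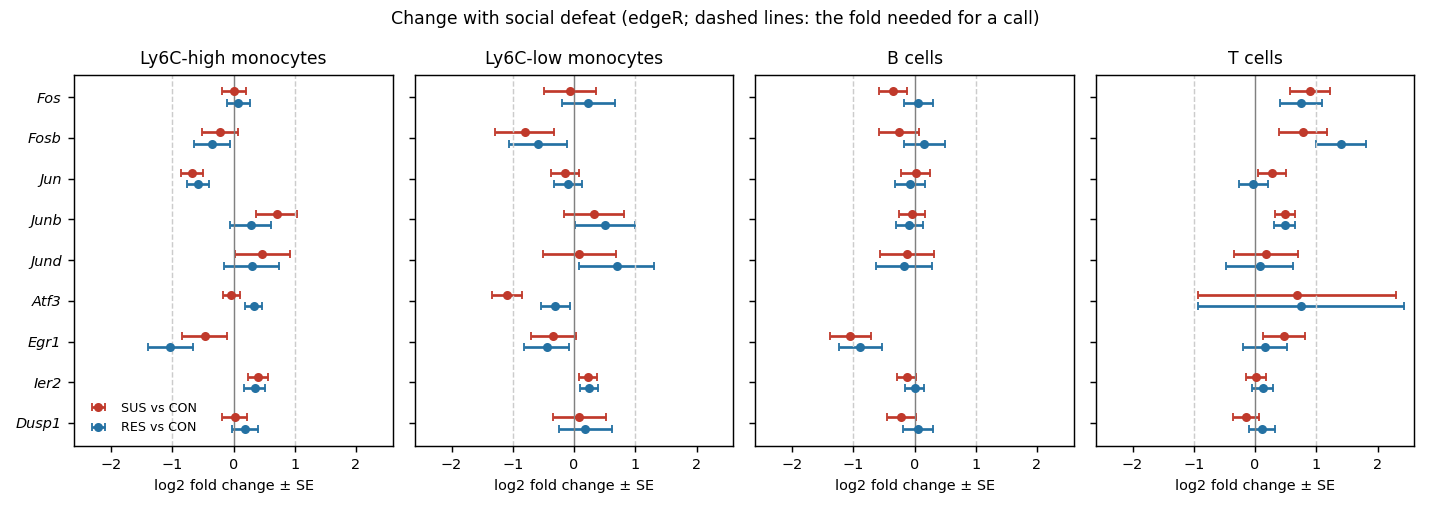
Log2 fold change of each gene against CON mice with its SE from edgeR, for SUS and RES mice in 4 cell types, with dashed lines at the fold of 1 that a call needs. Atf3 in SUS Ly6C-low monocytes (-1.09 ± 0.24) is the 1 value that was called, and Atf3 was not tested in B cells.

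In Ly6C-low monocytes, the nonclassical blood monocytes, Atf3 fell in SUS mice. It was at 25.1, 24.0, 30.7 and 24.8 CPM in the 4 CON libraries and at 11.5, 7.90, 19.1, 9.31, 10.8 and 15.2 CPM in SUS mice. RES mice had 18.8, 18.3, 17.2, 39.1, 18.3 and 17.2 CPM. All SUS libraries lay below all CON libraries, as for 2.26% of the 14777 genes, whereas 5 of 6 RES libraries lay within the SUS range and library 28 above all CON libraries. The log2 fold change of SUS vs. CON mice was -1.09 ± 0.24 (adjusted p = 0.0455, edgeR's quasi-likelihood test), the 1 call among 9 genes, where 0.0871 percent of 19521 genes were called. DESeq2 called it too (adjusted p = 0.00692). The call was close to the threshold and was lost in 8 of 10 fits that left out 1 library, whose adjusted p ran from 0.0277 to 0.170 and whose log2 fold changes ran from -1.27 to -0.997. It was also lost with RES libraries kept out of the fit (adjusted p = 0.0787).

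Sums of markers listed for other cell types differed between the groups too, and which cells they came from was not tested. Summed dendritic cell markers (Flt3, Cd209a, Zbtb46 and Siglech, none of them at 0) were at 85.3 to 232 CPM in CON, 35.1 to 108 CPM in SUS and 54.6 to 168 CPM in RES Ly6C-low monocytes. Red cell markers had medians of 422, 810 and 771 CPM. They ranged from 215 to 939 CPM in CON and 606 to 1936 CPM in SUS mice, so a red cell covariate partly tracks stress here too. NK cell markers were at 276 to 1473 CPM over these libraries, with medians of 571, 533 and 792 CPM. Within groups, Atf3 had r = 0.25 with the dendritic cell sum (rho = 0.279, adjusted permutation p = 0.760 and 0.643, r = 0.171 without 2 libraries) and r = 0.0036 with the red cell sum (rho = 0.109, adjusted permutation p = 0.994 and 0.865). With the red cell covariate the Atf3 value was -1.14 ± 0.31 (adjusted p = 0.437). Their part in the Atf3 difference was not tested further.

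RES vs. CON mice differed in 0 of the 9 genes in Ly6C-low monocytes, with 0 at an unadjusted p under 0.05 in edgeR and 0 called by DESeq2, against 0.0154 percent of all genes called and 9.67 percent at an unadjusted p under 0.05. Atf3 was at -0.31 ± 0.24 there. Between SUS and RES mice 0 percent of all genes were called, and Atf3 differed by -0.79 ± 0.22 (adjusted p = 1.0, edgeR), the 1 member at an unadjusted p under 0.05 (3.79 percent of all genes) and not called by DESeq2. Fosb was at 4.72 to 27.3 CPM (median 14.3) in SUS, 10.9 to 31.9 CPM (median 15.8) in RES and 11.8 to 45.4 CPM in CON mice, with log2 fold changes of -0.81 ± 0.47 and -0.59 ± 0.48. Egr1 was at 4.90 to 28.2 CPM (median 8.94) in SUS and 7.99 to 13.6 CPM (median 10.6) in RES mice, with -0.34 ± 0.37 and -0.44 ± 0.37. Their groups overlapped. Fos, Jun, Junb, Jund, Ier2 and Dusp1 had log2 fold changes between -0.15 and 0.70 in these comparisons, each below 2 SE.

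In B cells, Atf3 did not pass the low-count filter and 8 of 9 genes were tested. SUS and RES mice compared with CON mice, and with each other, gave 0 called members by edgeR or DESeq2, with 1, 1 and 0 at an unadjusted p under 0.05 by either tool, where 0.00568, 0 and 0 percent of 17620 genes were called and 3.42, 3.18 and 1.36 percent had an unadjusted p under 0.05 in edgeR. The gene at an unadjusted p under 0.05 was Egr1 each time. Its level was 4.86 to 18.6 CPM (median 8.48) in CON and 3.02 to 6.24 CPM (median 5.00) in SUS mice, and 7.92, 2.86, 3.80, 3.89 and 8.84 CPM in RES mice. The groups overlapped, and the log2 fold changes were -1.05 ± 0.33 (adjusted p = 0.999, edgeR) and -0.89 ± 0.35 (adjusted p = 1.0). The other 7 genes lay between -0.35 and 0.16. Jund, which in CON mice was higher in these cells than in the other types, was at 16.7 to 81.6 CPM (median 40.7) in SUS mice. In RES mice it was at 41.1, 11.8, 77.5, 73.5 and 22.3 CPM, and its log2 fold changes were -0.12 ± 0.44 (SUS) and -0.17 ± 0.46 (RES).

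In T cells, all 9 genes were tested and 0 were called by edgeR or DESeq2 in the 3 comparisons. Unadjusted p-values under 0.05 came to 2 for SUS mice, 3 for RES mice and 0 between them by either tool, all of them higher in stressed mice, where 0.0265, 0 and 0 percent of 18860 genes were called and 4.8, 4.11 and 2.39 percent had an unadjusted p under 0.05 in edgeR. Fosb was at 2.40 to 3.38 CPM (median 3.05) in CON, 0.939 to 9.40 CPM (median 5.10) in SUS, and 4.52, 2.97, 8.12, 9.75 and 14.1 CPM in RES mice. Of the 5 RES libraries, 4 lay above every CON library, and the log2 fold change was 1.41 ± 0.41 (adjusted p = 0.699, edgeR). Fos was at 2.14 to 8.91 CPM (median 4.63) in CON, 3.76 to 16.9 CPM (median 8.99) in SUS, and 10.2, 6.97, 10.2, 6.94 and 8.48 CPM in RES mice, with 0.89 ± 0.33 (adjusted p = 0.675, edgeR) and 0.75 ± 0.34 (adjusted p = 1.0). Junb was at 50.9 to 79.4 CPM in CON and 65.0 to 137 CPM in SUS mice, and its differences were 0.50 ± 0.16 in SUS (adjusted p = 0.533, edgeR) and 0.48 ± 0.17 in RES mice (adjusted p = 0.917). These levels overlapped between groups. Fos and Fosb in T cells rested on few reads, with 52 to 933 and 39 to 357 counts per library.

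An interaction term, fitted over 24248 genes, asked whether the stress response of a gene in Ly6C-high monocytes was unlike that in a second cell type, with a call at an adjusted p below 0.05 (edgeR, no DESeq2 fit was made). None of the 9 genes was called in any of the 6 interactions, so 0 each. For SUS vs. CON mice, 0.363 percent of all genes differed from Ly6C-low monocytes, 6.18 percent from B cells and 3.22 percent from T cells, and for RES vs. CON mice 0.099, 1.65 and 0.713 percent. Members at an unadjusted p under 0.05 numbered 0, 2 and 1 for SUS and 0, 1 and 2 for RES mice, against 14.2, 21.2 and 18.7 percent and 11.7, 18.2 and 17.7 percent of all genes. The lowest adjusted p belonged to Jun in SUS mice, whose Ly6C-high change differed by -0.93 ± 0.33 from that in T cells (adjusted p = 0.0895), and to Fosb in RES mice, which differed by -1.75 ± 0.58 from T cells (adjusted p = 0.0927). The Atf3 change in SUS mice differed by 1.08 ± 0.78 between Ly6C-high and Ly6C-low monocytes (adjusted p = 0.594). This fit shares its estimate of spread for a gene with B and T cells, where Atf3 was near 0. A fit of the 2 monocyte types alone, without B and T cells, also called none of the 9 genes. Fitted within each cell type, the change was -0.04 ± 0.14 in Ly6C-high and -1.09 in Ly6C-low monocytes. Whether the decrease was larger in Ly6C-low monocytes is not decided by the interaction.

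Genes of the same family and pathway were read from 4 lists beside the 9 genes. In SUS Ly6C-high monocytes 3.45 percent of all genes were called, and the lists had 1 of 17, 1 of 27, 1 of 18 and 0 of 25 tested genes called, in the order AP-1 relatives, other immediate early genes, feedback regulators and upstream genes. Of 17 AP-1 relatives, Batf alone was called, rising in Ly6C-high monocytes of SUS mice from 5.88 to 13.1 CPM (median 9.45) in CON to 14.5 to 32.8 CPM (median 25.6), a log2 fold change of 1.37 ± 0.25 (adjusted p = 0.00164, edgeR). Batf pairs with Jun proteins and competes with Fos. Among 31 other immediate early genes, of which 27 were tested in these cells, Ier3 was called in SUS (3.46 ± 0.62, adjusted p = 0.00161) and RES mice (2.64 ± 0.60, adjusted p = 0.0196). Ier3, a stress-responsive regulator of cell survival, was at 0.578 to 2.22 CPM (median 0.813) in CON, 1.95 to 22.5 CPM (median 8.95) in SUS and 0.555 to 11.3 CPM (median 7.05) in RES mice. The RES call was lost without library 9, 15 or 18. Of 20 feedback regulators, 18 were tested and Zfp36l1, which speeds the decay of AU-rich transcripts, was called in SUS mice (1.73 ± 0.28, adjusted p = 0.00105), with 8.73 to 20.0 CPM (median 13.7) in CON and 16.2 to 61.3 CPM (median 51.8) in SUS mice. None of 25 upstream factors and kinases was called, so 0. With the red cell covariate, which nearly tracks stress in these cells, these calls were lost. The values were then 0.77 for Batf, 1.17 for Zfp36l1, and 2.27 (SUS) and 1.84 (RES) for Ier3. Median log2 fold changes in SUS mice were -0.02, 0.11, -0.14 and 0.04 for AP-1 relatives, other immediate early genes, feedback regulators and upstream genes, against -0.05 over all genes. No gene of the 4 lists was called in any stress comparison of the other 3 cell types, where the numbers tested were 17, 29, 19 and 25 in Ly6C-low monocytes, 14, 25, 19 and 25 in B cells, and 15, 27, 19 and 25 in T cells, in the order relatives, other immediate early genes, feedback regulators and upstream genes.

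Between cell types of CON mice the lists split further. The Ly6C-low libraries also carried NK cell markers, whose part in the monocyte differences was not tested. Of 17 AP-1 relatives, 8 were higher and 0 lower in Ly6C-high monocytes than in B cells, among them Batf2 (10.2 ± 1.07) and Batf3 (9.56 ± 0.74), against 33.1 percent of genes called in either direction. Between the monocyte types, where 11.2 percent of all genes were called, only Maf was called among them, higher by 2.76 ± 0.35 in Ly6C-high monocytes. Among feedback regulators, 6 were lower and 1 higher in Ly6C-high than Ly6C-low monocytes, with the phosphatase genes Dusp16 (-5.10 ± 0.21), Dusp5 (-3.62 ± 0.37) and Dusp2 (-2.97 ± 0.16) among the largest, whereas Dusp1 was at -0.32 ± 0.24. Other immediate early genes gave 2 higher and 6 lower in the same comparison, with Nr4a3 (-7.87 ± 0.94), Egr3 (-6.27 ± 0.76) and Nr4a1 (-1.70 ± 0.20), an orphan receptor known as a survival factor of Ly6C-low monocytes and also on their marker list, all lower in Ly6C-high monocytes, against Fos, Fosb and Atf3, which were higher. Of 25 upstream factors and kinases, 0 were called between the monocyte types, and 6 were higher and 2 lower in Ly6C-high monocytes than in B cells.

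Within a cell type, pairs of the 9 genes were compared over libraries after the means of the CON, SUS and RES groups were removed, 36 pairs in each of 4 cell types. By Pearson's r with 100000 permutations within groups, 15 pairs had an adjusted p under 0.05, of which T cells gave 1, B cells 5 and the Ly6C-low and Ly6C-high monocytes 5 and 4. By Spearman's rho, 3 of the Ly6C-high, 2 of the Ly6C-low and 3 of the B cell pairs passed as well, and 0 in T cells. Fos moved with Dusp1, the gene of a MAP kinase phosphatase, in both monocyte types. In 18 libraries of Ly6C-high monocytes r was 0.852 (adjusted permutation p = 0.0117, rho = 0.697 with adjusted permutation p = 0.0320, r = 0.647 without 2 libraries). In 16 libraries of Ly6C-low monocytes r was 0.921 (adjusted permutation p = 0.00216, rho = 0.903 with adjusted permutation p = 0.00792, r = 0.857 without 2 libraries). Junb and Ier2 moved together in 3 cell types, with r = 0.833 in Ly6C-high and 0.919 in Ly6C-low monocytes and 0.813 in B cells (adjusted permutation p = 0.00216, 0.0108 and 0.00612). Their rho was 0.771, 0.835 and 0.814 (adjusted permutation p = 0.0199, 0.0532 and 0.0126), and r without 2 libraries 0.699, 0.861 and 0.745.

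The remaining pairs were Fos with Fosb and Junb with Jund in Ly6C-high monocytes (r = 0.826 and 0.738), Jun with Ier2, Junb with Jund and Jund with Ier2 in Ly6C-low monocytes (0.7498, 0.756 and 0.601), and Fos with Jun, Fos with Ier2, Fosb with Ier2 and Jun with Ier2 in B cells (0.682, 0.757, 0.774 and 0.771). In T cells the 1 pair was Fosb with Atf3, with r = -0.793 (adjusted permutation p = 0.0348, rho = -0.790 with adjusted permutation p = 0.0532), where Atf3 rested on 0 to 55 counts per library. After a linear fit on the share of Gm23935 and Gm26917, 7 of the 15 pairs still passed, Junb with Ier2 in 3 cell types, Fos with Fosb in Ly6C-high monocytes, Fos with Dusp1 in Ly6C-low monocytes, Fosb with Ier2 in B cells and Fosb with Atf3 in T cells. Several of the others no longer passed the adjusted p but kept a similar r, as Fos with Dusp1 in Ly6C-high monocytes (0.840, adjusted permutation p = 0.0830) and in B cells Fos with Ier2 (0.7502), Fos with Jun (0.657) and Jun with Ier2 (0.707). The r of Junb with Jund dropped to 0.314 in Ly6C-high and 0.578 in Ly6C-low monocytes, that of Jund with Ier2 to 0.406 and that of Jun with Ier2 to 0.646 in Ly6C-low monocytes.

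**Figure D5:**
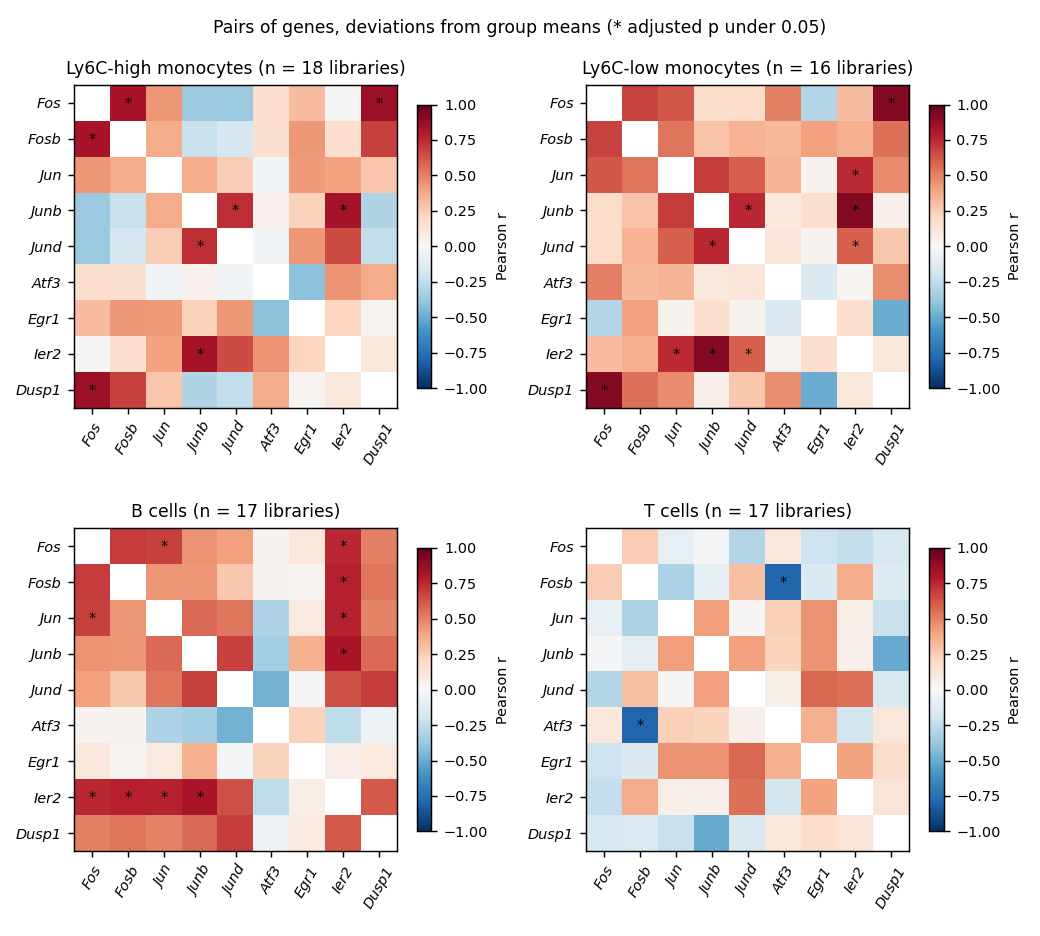
Pearson's r between the 9 genes over libraries within each cell type, on log2 (CPM + 0.5) after removal of group means, from -1 (blue) to 1 (red), with a star at an adjusted permutation p under 0.05. Fos and Dusp1 pair in both monocyte types (r = 0.852 and 0.921), Ier2 pairs with 4 genes in B cells, and T cells hold 1 starred pair.

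Over all 68 libraries, most of whose variation is between cell types and which share depth and composition, the genes whose log2 level was most like that of each member were found among 8618 genes with a mean of at least 10 CPM. They were Pacsin2 and Tep1 for Fos (r = 0.963 and 0.959), Gm37352 and E2f2 for Fosb (0.878 and 0.864), Pou2f2 and Bcl6 for Jun (0.910 and 0.907), Crlf2 and Tpgs1 for Junb (0.818 and 0.801), and Hnrnpa0 and Ppp1r35 for Jund (0.873 and 0.869). For Atf3 they were Arhgef37 and Pik3r6 (0.987 and 0.984), for Egr1 Ifi205 and Lyst (0.771 and 0.737), for Ier2 Map3k11 and Cst3 (0.949 and 0.938), and for Dusp1 Ehbp1l1 and Nadk (0.971 and 0.968). The members themselves were left out of the candidates, so likeness between members was not measured here. For the mean of the 9 genes the nearest were Zfp710, Camkk2, Vcl, Cyfip1 and Fes, with r from 0.955 to 0.953.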

How the data were processed

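RNA of sorted leukocytes was measured with a stranded total RNA kit for low input. Per the labels, reads were processed with HISAT2, HTSeq and DESeq2 on mm10. The authors deposited raw counts per Ensembl gene, 1 column per library, without normalization, and 0 columns were left unused. Libraries 52 and 70 were left out because their marker genes went against their labels. Strand option, multi-mapping and duplicate handling were not given in the sources used here.

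Identifiers of 52489 of 52636 genes matched GENCODE M21. Counts were filtered with filterByExpr, normalized with TMM and fitted with edgeR 4.0.16 (limma 3.58.1, R 4.3.3), robust quasi-likelihood, CON, SUS and RES libraries of a cell type together, CON libraries of the 4 cell types together, and 12 group means for interactions. P-values were Benjamini-Hochberg adjusted over all genes tested, and SE is the absolute log2 fold change over the square root of F. DESeq2 1.42.0 was an alternative. On simulated data the scheme was tested with 200 changed genes. Correlations used log2 (CPM + 0.5) and scipy 1.17.1. Counting error does not cover duplicate reads, since no molecular identifiers were counted.

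The 9 genes, the lists and the tests were chosen with earlier results of these data known. Named were all 9 genes and, from each list and comparison, up to 5 called genes with the largest change, of which some are given. For likeness, 2 genes per member and 5 for the mean were named. A result on 1 gene of the lists is not reported here.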

Additional observations from a re-analysis of the deposited data

Results flagged for a closer look

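In 9 of 108 groups of 4 to 6 libraries, 1 library lay far from the rest of its group by Dixon's criterion, which flags about 1 group in 20 by chance. CON library 16 of Ly6C-high monocytes was the highest of its group for Fos (533 CPM) and for Fosb (99.5 CPM). SUS library 5 of Ly6C-high monocytes had 58.5 CPM of Egr1, and SUS library 22 of Ly6C-low monocytes had 28.2 CPM. Atf3 was high in RES library 28 (39.1 CPM) and CON library 29 (30.7 CPM) of Ly6C-low monocytes, and in SUS library 42 of B cells (0.322 CPM). RES library 23 of Ly6C-low monocytes had the lowest Junb of its group (64.8 CPM) and RES library 64 of T cells the lowest Jun (6.77 CPM).

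Some genes of the 4 pathway lists, though none of the 9, responded differently in Ly6C-high monocytes than in another cell type by edgeR's interaction test at an adjusted p under 0.05. The lists held 17, 31, 20 and 25 genes. Over all genes, 0.363 percent differed from Ly6C-low monocytes, 6.18 percent from B cells and 3.22 percent from T cells in SUS mice. In RES mice 1.65 percent differed from B cells. Whether listed genes passed more often than all genes was not tested. Zfp36l1 had a larger SUS vs. CON log2 fold change in Ly6C-high monocytes than in Ly6C-low monocytes (by 1.58, SE 0.36), B cells (1.91, SE 0.34) and T cells (1.86, SE 0.34). Csrnp1, a nuclear factor gene of the immediate early list, differed by 1.17 from Ly6C-low monocytes and 0.83 from B cells. From B cells, Ier3 differed by 5.56 in SUS and 5.34 in RES mice, Sgk1 by 0.74 and 0.88, Batf by 1.08 and Nab1 by -0.63 in SUS mice. In B cells Ier3 was at 0 to 1.39 CPM, so its interaction rests on few counts there. Map2k2, a MAP kinase kinase gene, differed by 0.73 from B cells and 0.74 from T cells. Batf3 differed by -4.66 from T cells, where its level was 0 to 1.07 CPM with a median of 0 in CON and in SUS mice. In Ly6C-high monocytes its mean was 13.5 CPM in CON and 13.6 CPM in SUS mice. This interaction thus also rests on few counts, those of T cells.

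The left-out library 70, labelled RES T cells, had 31.4 CPM of Fos, 16.6 of Fosb, 50.4 of Jun, 155.5 of Junb, 76.1 of Jund, 98.0 of Ier2 and 26.3 of Dusp1, each above every CON library of T cells. It carried 4663 CPM of B cell and 0.681 CPM of T cell markers. The left-out library 52, labelled RES B cells, lay below every CON library of B cells for Fos (15.2 CPM), Fosb (4.00 CPM), Jun (13.9 CPM), Junb (110 CPM), Jund (15.3 CPM) and Ier2 (46.8 CPM), and carried 9.27 CPM of B cell and 1374 CPM of T cell markers.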

How the results depend on the processing

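Alternatives were DESeq2, its size factors in edgeR, no filter, at least 10 counts in every library, 2 groups only and the adjusted p alone. Further ones were a red cell covariate, 12 group means, libraries 52 and 70 kept under their labels, other pseudocounts and leaving out each library. Each interaction was also refitted with its 2 cell types only. Another fit removed mitochondrial, hemoglobin and ribosomal RNA genes together with Gm23935 and Gm26917. The share of Gm23935 and Gm26917 as a covariate was added after seeing the data. No paired analysis was possible because the labels name no mouse and no library number is shared between groups. Of the recomputed counts of called members, 364 stayed within 1.5 times the value given in the results and 18 did not. A count of 0 that stayed at 0 was taken as unchanged, and most comparisons had 0 called members to begin with. In Ly6C-high monocytes the count of called members in SUS vs. CON mice was 1 by the adjusted p alone (Jun) and 0 to 1 with a library left out. For RES vs. CON mice it was 1 with 2 groups only and 1 with the share covariate (Egr1). In Ly6C-low monocytes of SUS mice it was 0 with 2 groups only, 0 with the red cell covariate and 0 to 1 with a library left out. Between the monocyte types of CON mice, 1 member was called in the fit of 12 means and 1 to 3 with a library left out, and 7 were called between Ly6C-low monocytes and B cells by the adjusted p alone. The number of pairs past the adjusted p was 7 after the fit on the share, with a similar r in several of those lost. Signs turned for Ier2 in SUS Ly6C-high monocytes with the red cell covariate (-0.015), for Jund against T cells with the share covariate (0.67 in Ly6C-high, 1.29 in Ly6C-low monocytes), and for Jund between monocyte types with a library left out (-0.60 to 0.17). Among 145 uncalled values with p of at least 0.05, 57 changed sign in some alternative, and 173 of the 177 changes started within 1 SE of 0. The cause was not tested.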
